A study of Homo sapiens with 12 samples.

Results

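The suppressor of cytokine signalling genes SOCS1 to SOCS6, their relative CISH and the kinase genes PIM1, PIM2 and PIM3 were followed in U937 cells that had received PML-RARA, the fusion protein of acute promyelocytic leukemia. These 10 genes, out of 19775 with a single gene symbol on the array, are measured by 25 probe sets out of 54613 that are not controls. Every probe set that the platform annotation gives to 1 of these symbols was taken, and each gene is represented by whichever of its probe sets had the highest mean over the 12 arrays on the log2 scale. The genes were chosen from differences between fusion and GFP cells in these same arrays, so those differences are given below as a description and no test is drawn from them. U937 is an established human monocytic line from a histiocytic lymphoma.

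Cells were electroporated with 1 of 3 plasmids and then sorted for green fluorescence. The control plasmid coded for GFP, the second for a GFP-tagged wild-type fusion (PRWT) and the third for a GFP-tagged fusion named PR2VR. PR2VR was taken to be the protease-resistant fusion named in the series title, although its label, like that of PRWT, speaks of wild-type cDNA. RNA was taken at 6 h and at 9 h, which gives 6 groups of 2 arrays, 4 arrays per construct. Sample titles count the hours from transfection for GFP and from infection for both fusions, so a difference in procedure, if there was one, cannot be told apart from the fusion. All groups share the U937 background and the GFP sort, and all expression was transient and from a plasmid. The labels do not say whether replicates were separate transfections, so each p-value reflects the spread among these arrays alone, and that spread may be technical. In bulk RNA of sorted cells, fewer cells with a transcript and less of it per cell cannot be told apart.

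Cytokines that bind receptors coupled to JAK kinases activate STAT transcription factors, and STAT factors switch on the genes of their own inhibitors. CISH and SOCS proteins carry an SH2 domain, which docks to phosphorylated receptors or kinases, and a SOCS box, which recruits a ubiquitin ligase. SOCS1 and SOCS3 can also block JAK kinase activity directly. PIM kinases are serine and threonine kinases that are active once made, so their output follows their transcript and protein level. In myeloid cells both families are read as marks of recent cytokine signalling.

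STAT dimers bind a palindrome with the letters TTCNNNGAA, where N is any base. The promoters of CISH, SOCS1 and PIM1 are printed here to show where these letters occur, and those of the other genes are not printed. The letters read the same on both strands, so one search covers both, and TTCCNGGAA, also searched, is a subset of TTCNNNGAA. The promoters, from 250 bases before to 50 bases after the start site, come from RefSeq (GRCh38.p14), are written 5′ to 3′ on the strand of the gene, and show TTCNNNGAA in capitals. They lie at chr3:50611725-50612024 on the minus strand for CISH, at chr16:11256155-11256454 on the minus strand for SOCS1 and at chr6:37169902-37170201 on the plus strand for PIM1.
CISH: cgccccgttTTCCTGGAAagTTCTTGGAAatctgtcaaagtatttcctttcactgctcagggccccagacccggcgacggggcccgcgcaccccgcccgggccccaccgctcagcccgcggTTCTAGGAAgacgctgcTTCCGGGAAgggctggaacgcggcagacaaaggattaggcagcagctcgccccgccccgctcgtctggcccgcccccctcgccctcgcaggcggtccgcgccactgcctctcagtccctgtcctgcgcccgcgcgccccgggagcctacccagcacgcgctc
SOCS1: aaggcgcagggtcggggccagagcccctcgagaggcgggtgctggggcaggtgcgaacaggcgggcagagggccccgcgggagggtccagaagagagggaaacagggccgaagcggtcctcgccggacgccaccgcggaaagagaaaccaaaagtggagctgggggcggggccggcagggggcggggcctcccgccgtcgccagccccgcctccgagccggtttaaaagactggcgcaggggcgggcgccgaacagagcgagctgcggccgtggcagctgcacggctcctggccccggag
PIM1: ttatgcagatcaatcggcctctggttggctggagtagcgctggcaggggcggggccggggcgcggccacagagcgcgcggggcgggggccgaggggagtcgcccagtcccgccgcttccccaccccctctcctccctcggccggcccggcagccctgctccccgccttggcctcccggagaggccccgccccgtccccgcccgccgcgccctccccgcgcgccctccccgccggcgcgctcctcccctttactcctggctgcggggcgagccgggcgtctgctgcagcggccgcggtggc
CISH held 4 matches, whose first bases lie at -241, -230, -129 and -112 from the start site, and 2 of them also had the letters TTCCNGGAA. The table held 9 promoters of 8 of the 10 genes, among them a pair for SOCS3, and TTCNNNGAA occurred in the CISH promoter alone. Of all 35116 promoters in that table, 7.66% held TTCNNNGAA and 1.15% held TTCCNGGAA. G and C made up 70.3% of the CISH promoter, 74.0% of the SOCS1 promoter and 79.7% of the PIM1 promoter, against a median of 58.7% over all promoters. The absence of a match says only that these letters were not in this window.

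Values are MAS5 signals, the linear intensity that the Affymetrix software gives per probe set, and differences are on the scale log2(signal + 62.5). The trimmed mean signal was 1500.2 on every array. The 3 arrays of 9 h that carry number 2 stood apart, with median signals of 387.8 to 436.0 against 238.6 to 292.1 on the other 9 arrays. Their GAPDH probe sets also differed in 3′ signal over 5′ signal, which rises as RNA or cDNA is shortened: the ratio was 2.22 to 2.75 there and 3.82 to 12.9 elsewhere. RARA, part of the fusion, read 48.2 to 309.2 on GFP arrays, 11970.8 to 58985 on PRWT arrays and 9281.2 to 41097.2 on PR2VR arrays. Of the 15 monocyte and macrophage markers listed, 13 were measured and 11 reached the filter described next, but CD14 (median signal 83.8) and SPI1 (66.2) did not. Summed over the 13, the signal ran from 63658 to 111617 on GFP arrays, from 49854 to 101568 on PRWT arrays and from 47390 to 139469 on PR2VR arrays. Among other markers measured, 4 of 4 for B cells reached the filter, with PAX5 at a median signal of 4600.2. So did 3 of 7 for T cells, 2 of 4 erythroid and 3 of 7 epithelial and fibroblast markers. Of all 19775 genes with a single symbol, 13959 reached it, so nothing is read from these marker counts. Genes were tested with limma where their mean reached a log2 of 7.85, which left 13959 genes and kept all 10 genes studied here, with 20 of their 25 probe sets. Arrays of 1 time and 1 number are called a set, there are 4 sets, and limma was fitted without and with the set as a block. A call means a Benjamini-Hochberg adjusted p under 0.05 over all 13959 genes.

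SOCS1, which binds and inhibits JAK kinases, was lower in all cells with a fusion. Its signal in GFP cells was 4894.4 and 8414.7 at 6 h and 3988.8 and 3764.8 at 9 h. In PRWT cells it was 921.8 and 2791.7 at 6 h and 609.4 and 2214.3 at 9 h. In PR2VR cells it was 934.5 and 1519.0 at 6 h and 1277.9 and 1679.5 at 9 h. The highest fusion array therefore lay below the lowest GFP array, while the PRWT and PR2VR arrays overlapped. Such a separation, all 8 fusion arrays below all 4 GFP arrays, was found for 0.251% of the genes tested, and by the representative probe sets SOCS1 was the only one of the 10 genes with it. Both fusions together differed from GFP by -1.84 ± 0.38 (log2, SE, n = 8 and 4 arrays), a 3.58-fold lower level, or -1.84 ± 0.26 with sets as a block. The difference was -1.81 ± 0.44 for PRWT and -1.87 ± 0.44 for PR2VR. By set, the mean of the fusions differed from GFP by -2.32 to -0.94. The smallest difference came from the set with number 2 at 9 h, whose arrays stood apart as given above. The difference without that set is given below, and the cause was not tested.

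PIM1, a kinase that promotes survival and growth downstream of STAT factors, was lower as well, and its highest signals were those of GFP cells at 6 h. GFP cells gave 9994.8 and 9309.8 at 6 h but 5918.3 and 3979.2 at 9 h. PRWT cells gave 4397.0, 3526.5, 4133.5 and 2878.9, and PR2VR cells gave 3016.1, 2747.7, 2895.6 and 2824.2, in each case with 6 h first. All PR2VR arrays lay below all GFP arrays, whereas the highest PRWT arrays, 4397.0 and 4133.5, lay above the lowest GFP array. The PR2VR values were also close to one another, from 2747.7 to 3016.1, while the GFP values spread from 3979.2 to 9994.8. A separation of all 4 PR2VR arrays below all GFP arrays was found in 1.16% of genes, PIM1 and SOCS1 among them. The same separation for PRWT was found in 0.831% of genes, SOCS1 among them and PIM1 not. Both fusions together differed from GFP by -1.06 ± 0.23 (log2, SE, n = 8 and 4 arrays), a 2.08-fold lower level, or -1.06 ± 0.17 with the block. PRWT differed by -0.88 ± 0.27 and PR2VR by -1.24 ± 0.27.

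**Figure D1:**
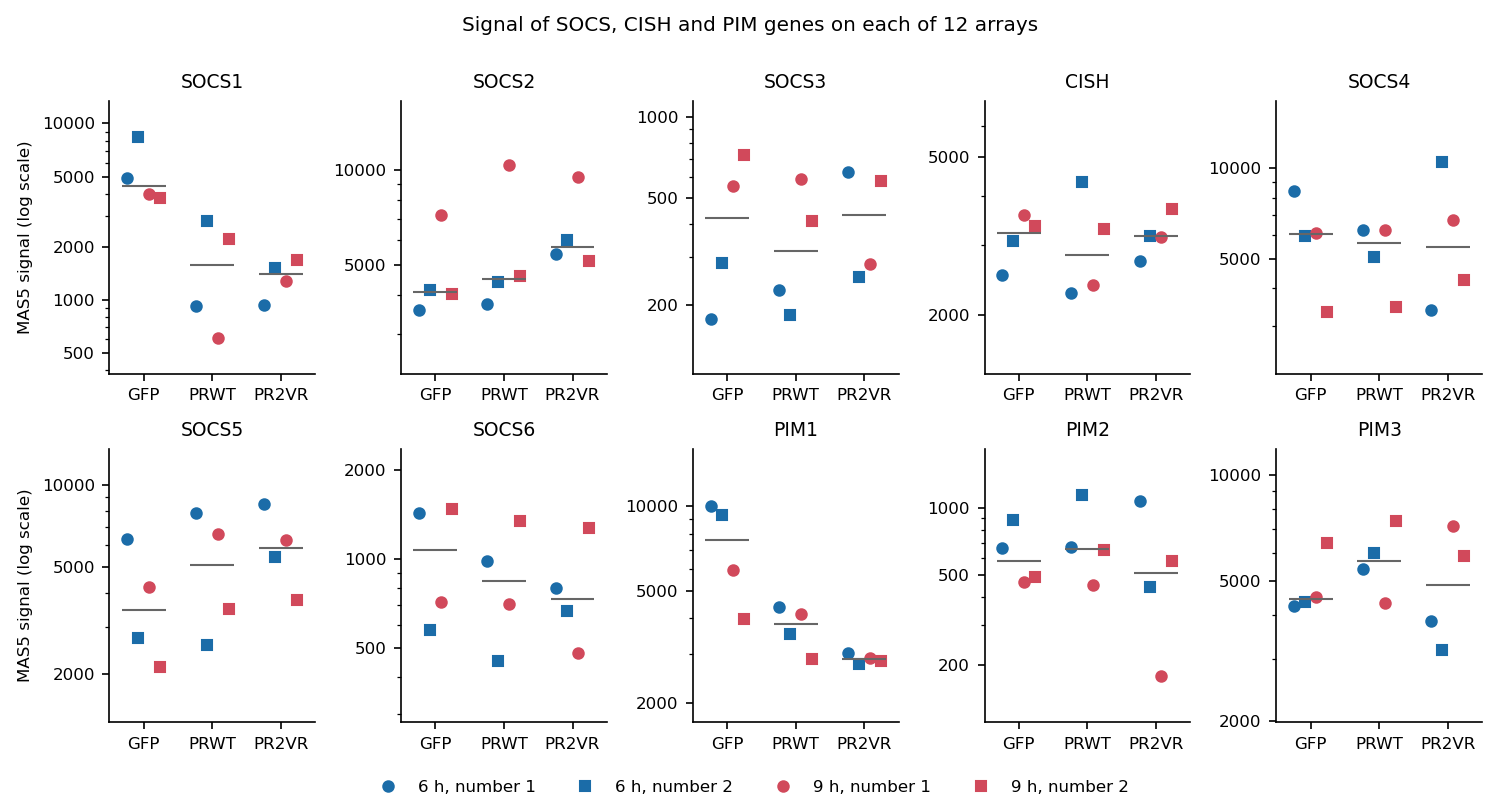
MAS5 signal (log axis) of the representative probe set of each gene on each of the 12 arrays, by construct, with colour for the time, shape for the replicate number and a line at the median of the 4 arrays. SOCS1 lay below the GFP arrays on all 8 fusion arrays, PIM1 on all 4 PR2VR arrays, and the other genes overlapped between constructs.

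The representative probe sets of the other 8 genes overlapped between GFP and fusion arrays. SOCS2, which dampens growth hormone and related signalling, read 3598.5, 4164.5, 7210.2 and 4037.0 in GFP cells, 3741.1, 4395.6, 10371.7 and 4593.0 in PRWT cells and 5403.7, 5997.7, 9485.3 and 5142.5 in PR2VR cells. Within each set the PRWT and the PR2VR array were both above GFP, and the difference of both fusions from GFP was 0.33 ± 0.29 without and 0.33 ± 0.16 with the block. SOCS5, a member with a long amino-terminal part, read 6331.2, 2725.6, 4208.3 and 2137.5 in GFP cells, 7899.9, 2576.5, 6596.2 and 3497.1 in PRWT cells and 8492.7, 5403.3, 6261.7 and 3773.4 in PR2VR cells. Its spread between sets was larger than that between constructs, and the PRWT array of number 2 at 6 h was the only fusion array below the GFP array of its set. The difference for SOCS5 was 0.54 ± 0.37 without and 0.54 ± 0.18 with the block. The mean of the fusions was above GFP in 4 of 4 sets for SOCS2, SOCS5 and PIM3, a pattern seen in 9.23% of genes, and below GFP in 4 of 4 sets for SOCS1, PIM1 and SOCS6, a pattern seen in 10.7% of genes.

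SOCS3, the inhibitor of signalling through gp130 receptors such as that of interleukin 6, had low signals from 176.8 to 720.2 and overlapped in all constructs, with a difference of -0.08 ± 0.35. CISH, the founding member of the family and a STAT5 target, ranged from 2280.8 to 4336.9 and differed by -0.02 ± 0.25. SOCS4 differed by -0.07 ± 0.34 and SOCS6, for which the receptor KIT is a known partner, by -0.29 ± 0.38. Of the PIM paralogs, PIM2 ranged from 178.4 to 1142.2 and differed by -0.06 ± 0.35. PIM3 ranged from 3177.7 to 7395.6 and differed by 0.11 ± 0.24.

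**Figure D2:**
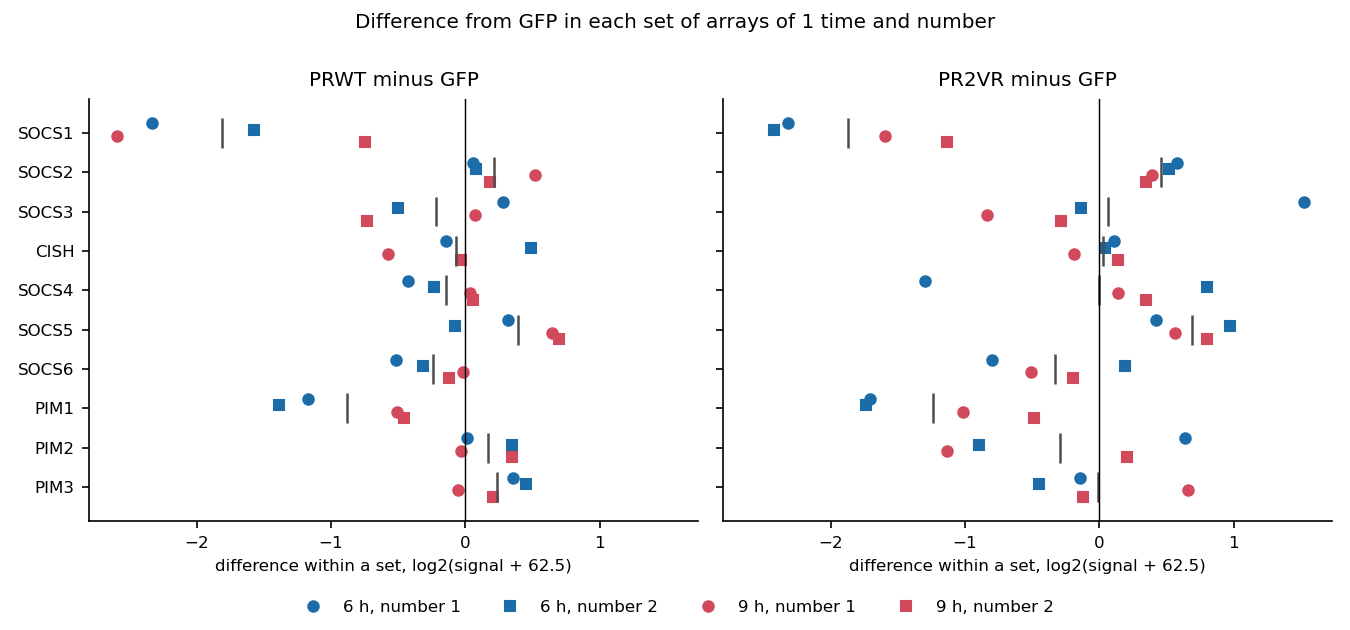
Difference from GFP on the log2(signal + 62.5) scale within each set, for PRWT (left) and PR2VR (right), with a line at the mean of the 4 sets. SOCS1 and PIM1 lay below 0 in 4 of 4 sets with either fusion, and SOCS2 lay above 0 in 4 of 4 sets with either fusion.

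Without the block, 0 of the 10 genes were called for both fusions, PRWT or PR2VR against GFP, comparisons in which limma called 0.00716% of all genes each. In each, 2 of the 10 had an unadjusted p under 0.05, as did 3.14%, 2.06% and 3.95% of all genes. With sets as a block, SOCS1 and PIM1 were called lower for both fusions, where 0.315% of all genes were called, and for PR2VR, where 0.294% were, and 0 of 10 were called for PRWT, where 0.00716% were. With the block, limma gave an unadjusted p under 0.05 for 3 of the 10 and 8.4% of all genes for both fusions, for 2 and 5.44% for PRWT, and for 4 and 11.1% for PR2VR. The genes were chosen with these comparisons known, so nothing is read from these counts. The median difference of the 10 genes was -0.07 for both fusions, with 3 above and 7 below 0, and that of all genes tested was -0.02, with 52.4% below 0. When each of the 12 arrays was left out in turn, SOCS1 was called for both fusions in 4 of 12 fits with the block, with differences from -2.13 to -1.55 and adjusted p from 0.0080 to 0.30. PIM1 was called in 2 of 12, those without a PR2VR array of 6 h, with differences from -1.13 to -0.99 and adjusted p from 0.0062 to 0.47. Those fits also called the most genes over the whole array, 249 without number 1 and 360 without number 2, against 44 with all arrays. When the set with number 2 at 9 h was omitted, 1 array per group was left at 9 h. In that fit with the block SOCS1 differed by -2.13 and PIM1 by -1.13 for both fusions.

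The probe sets of a gene did not always read alike, and those of SOCS1 disagreed most. The signals above come from probe set 210001_s_at. Probe set 209999_x_at read 412.0, 559.2, 188.4 and 379.9 in GFP cells, 159.4, 65.9, 16.7 and 126.0 in PRWT cells and 38.3, 142.1, 48.7 and 367.4 in PR2VR cells. It was lower with the fusions in this dim range, by a difference of -1.41 ± 0.36 with the block, and did not reach the filter. Probe set 213337_s_at ranged from 184.1 to 497.2 on GFP arrays, from 352.5 to 497.0 on PRWT arrays and from 150.1 to 691.2 on PR2VR arrays, and its difference was 0.18 ± 0.31. Probe set 210000_s_at, with GFP signals of 8.9, 11.6, 94.0 and 26.6, did not reach the filter either and differed by 0.76 ± 0.31. So 2 of 4 SOCS1 probe sets were lower and 2 were higher with the fusions, and the brightest of them was among the lower.

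CISH had 3 probe sets. Besides the representative 223377_x_at, 221223_x_at differed by -0.33 ± 0.18. Probe set 223961_s_at read 697.1, 649.2, 630.9 and 855.4 in GFP cells, 324.0, 625.4, 180.7 and 460.9 in PRWT cells and 187.5, 285.3, 61.8 and 546.8 in PR2VR cells. Every fusion array of this probe set was below every GFP array, as in 0.251% of the probe sets that passed the filter. Of the 20 probe sets of the 10 genes that passed it, 2 were so separated, this one and 210001_s_at of SOCS1. The difference was -1.13 ± 0.34 with the block (limma adjusted p = 0.42 over all probe sets without the filter), which did not pass the threshold. The brighter CISH probe sets overlapped between constructs. Over all 25 probe sets, 14 differences were below 0 and 11 above, from -1.84 to 0.76. The 3 probe sets of SOCS2 differed by 0.33, 0.29 and 0.39 and the 3 of SOCS5 by 0.54, 0.34 and 0.16. The 4 probe sets of SOCS3 differed by -0.08, -0.36, -0.25 and 0.06, the 2 of SOCS4 by -0.07 and 0.29 and the 3 of SOCS6 by -0.29, -0.01 and -0.05. Each PIM gene had a single probe set.

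**Figure D3:**
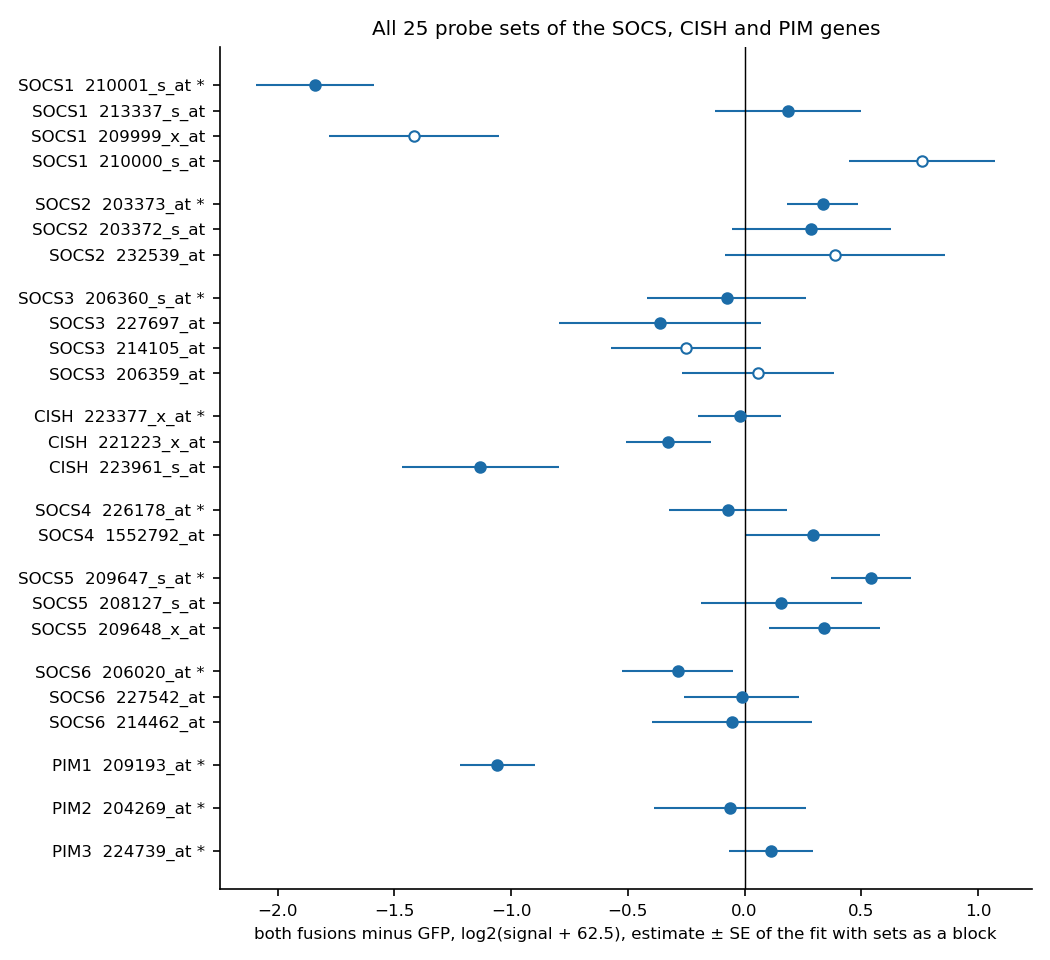
Difference of both fusions from GFP on the log2(signal + 62.5) scale for each of the 25 probe sets, as the estimate ± SE of the fit with sets as a block over all probe sets with 1 symbol and no filter. An asterisk marks the representative probe set and an open symbol a probe set below the filter. The 4 SOCS1 probe sets ran from -1.84 to 0.76 and the 3 CISH probe sets from -1.13 to -0.02.

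PR2VR was compared with PRWT directly, a comparison that did not choose the genes, although its PR2VR and PRWT arrays also enter the differences from GFP. PIM1 was lower in PR2VR than in PRWT in 4 of 4 sets, by -0.53 and -0.35 at 6 h and by -0.50 and -0.03 at 9 h, a pattern of sign found in 6.93% of genes. The difference was -0.35 ± 0.27 (limma, 95% interval -0.94 to 0.23, adjusted p = 1.0) and -0.35 ± 0.20 with the block (adjusted p = 0.77). SOCS1 differed by 0.02 and -0.85 at 6 h, and was above 0 in one set and -0.39 in the other at 9 h, so that the sets disagreed in direction. Its mean difference was -0.06 ± 0.30 with the block (95% interval -0.72 to 0.61). The mean differences of the 10 genes ran from -0.46 for PIM2 to 0.30 for SOCS5. By limma, 0 of the 10 genes and 0% of all genes were called without the block, and 0 of 10 and 0% with it. Of the 10 genes, 0 had an unadjusted p under 0.05 in either fit, against 1.55% of all genes without and 6.86% with the block. The 95% intervals of the 10 genes together reached from -1.34 to 1.23 without the block, so differences up to those sizes lie within the error of 4 arrays per construct. When the set with number 2 at 9 h was omitted, the SOCS1 difference was 0.29 and that of PIM3 was 0.013, against -0.25 with all sets.

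The genes were then compared between 9 h and 6 h. The median gene tested was 0.13 higher at 9 h, and quantile normalization lowered that median to 0.05. The representative probe set of SOCS3, 206360_s_at, gave 176.8 and 284.8 at 6 h and 554.7 and 720.2 at 9 h in GFP cells. In PRWT cells it was 227.4 and 182.5 at 6 h and 586.8 and 409.3 at 9 h, and in PR2VR cells 626.2 and 252.8 at 6 h and 283.0 and 580.3 at 9 h. The times were separate in GFP and PRWT cells and overlapped in PR2VR cells. Over all constructs this probe set differed by 0.78 ± 0.33 at 9 h (limma, 95% interval 0.07 to 1.49, adjusted p = 0.31), and by 0.50 after quantile normalization. The other SOCS3 probe set that passed the filter, 227697_at, went the opposite way. It gave 937.3 and 275.7 at 6 h and 212.5 and 121.7 at 9 h in GFP cells, 456.8 and 361.6 at 6 h and 16 and 236.5 at 9 h in PRWT cells, and 227.0 and 407.6 at 6 h and 169.3 and 177.6 at 9 h in PR2VR cells. Both 9 h arrays thus lay below both 6 h arrays in each construct, with a difference of -1.21 ± 0.43 (limma over all probe sets that passed the filter, adjusted p = 0.25). How many of all genes show such separations within a construct was not counted, so nothing is read from them. Of the SOCS3 probe sets below the filter, 214105_at read 28.7 to 118.5 at 6 h and 161.0 to 267.8 at 9 h, so it was higher at 9 h. Among the genes tested, 1.25% had all 6 arrays of 9 h above all 6 of 6 h. Probe set 206359_at ranged from 15.7 to 398.7 and overlapped between the times. The SOCS3 probe sets therefore disagreed on the direction of change with time, and neither of those above the filter passed the threshold. PIM2 was lower at 9 h by a difference of -0.73 ± 0.33 (limma adjusted p = 0.33), with signals of 445.8 to 1142.2 at 6 h and 178.4 to 646.0 at 9 h. For SOCS3 and PIM2 with sets as a random block, limma gave adjusted p = 0.86 each. The representative probe set of SOCS2, 203373_at, was higher at 9 h by 0.51 ± 0.28 (limma adjusted p = 0.39). Its dimmer probe set 203372_s_at was higher by 1.21 ± 0.47 (limma over all probe sets that passed the filter, adjusted p = 0.28). With the random block limma gave these adjusted p = 0.86 and 0.85.

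PIM1 in GFP cells was lower at 9 h than at 6 h, from 9994.8 and 9309.8 to 5918.3 and 3979.2. The difference was -0.98 ± 0.38 (limma, 95% interval -1.81 to -0.16, adjusted p = 0.94). These GFP arrays also enter the differences from GFP that chose the genes, so nothing is read from this interval. In the fusion cells the difference was -0.10 ± 0.27. In order of level, the 2 GFP groups stood first, and GFP at 6 h (mean log2 13.25 ± 0.07, SD, n = 2) did not overlap with GFP at 9 h (12.26 ± 0.40), which was followed by PRWT at 6 h (11.97 ± 0.22), PRWT at 9 h (11.78 ± 0.36), PR2VR at 6 h (11.52 ± 0.09) and PR2VR at 9 h (11.51 ± 0.03), each overlapping with its neighbour. For SOCS1 the order was GFP at 6 h (12.66 ± 0.55) and GFP at 9 h (11.94 ± 0.06), apart from each other and from the rest, and then PRWT at 6 h, PR2VR at 9 h, PR2VR at 6 h and PRWT at 9 h (10.71, 10.58, 10.29 and 10.27), each overlapping with its neighbour. In the other 8 genes neighbours in the order overlapped, except for PIM3, where GFP at 9 h, GFP at 6 h and PR2VR at 6 h were separate. The share of all genes with such separations between neighbouring groups was not counted, so nothing is read from them.

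For time over all constructs, 0 of the 10 genes were called by limma without the block, where 0.0788% of all genes were, and 2 of the 10 had an unadjusted p under 0.05, as did 15.1% of all genes. With the random block limma called 0 of 10 and 0% of all genes, and 0 of the 10 and 5.49% of all genes had an unadjusted p under 0.05. In GFP cells limma called 0 of 10 and 0% of all genes in both fits. There 2 of the 10 without and 1 with the random block had an unadjusted p under 0.05, against 4.85% and 5.09% of all genes. The GFP arrays also enter the differences that chose the genes, so nothing is read from these counts. In fusion cells limma called 0 of 10 and 0% of all genes in both fits, and 0 of the 10 had an unadjusted p under 0.05, against 9.01% of all genes without and 4.91% with the random block. An interaction, the difference from GFP at 9 h less that at 6 h, was fitted to describe the fusion effect at both times. Both differences were known when the genes were chosen, so its p-values are given as a description and nothing is read from them. For PIM1, -1.50 at 6 h and -0.62 at 9 h gave 0.88 ± 0.47 (limma adjusted p = 1.0), and 0.88 ± 0.34 with the block (adjusted p = 1.0). For SOCS1, -2.16 and -1.52 gave 0.64 ± 0.75 (limma adjusted p = 1.0). For SOCS3 the interaction was -0.73 ± 0.70 by its representative probe set. In limma 0 of 10 genes and 0% of all genes were called in the interaction, with 0 of 10 at an unadjusted p under 0.05 without the block and 1 with it, against 0.759% and 3.11% of all genes. The PIM1 difference at 9 h was -0.34 without the GFP array of number 1 and -0.90 without that of number 2. The SOCS1 difference at 9 h was -0.94 without the GFP array of number 1 in the fit with the block. The SOCS1 interaction ran from 0.20 without PRWT number 2 of 9 h to 1.08 without PRWT number 1 of 9 h. With the block it ran from 0.066 without GFP number 2 of 9 h to 1.22 without GFP number 1 of 9 h.

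**Figure D4:**
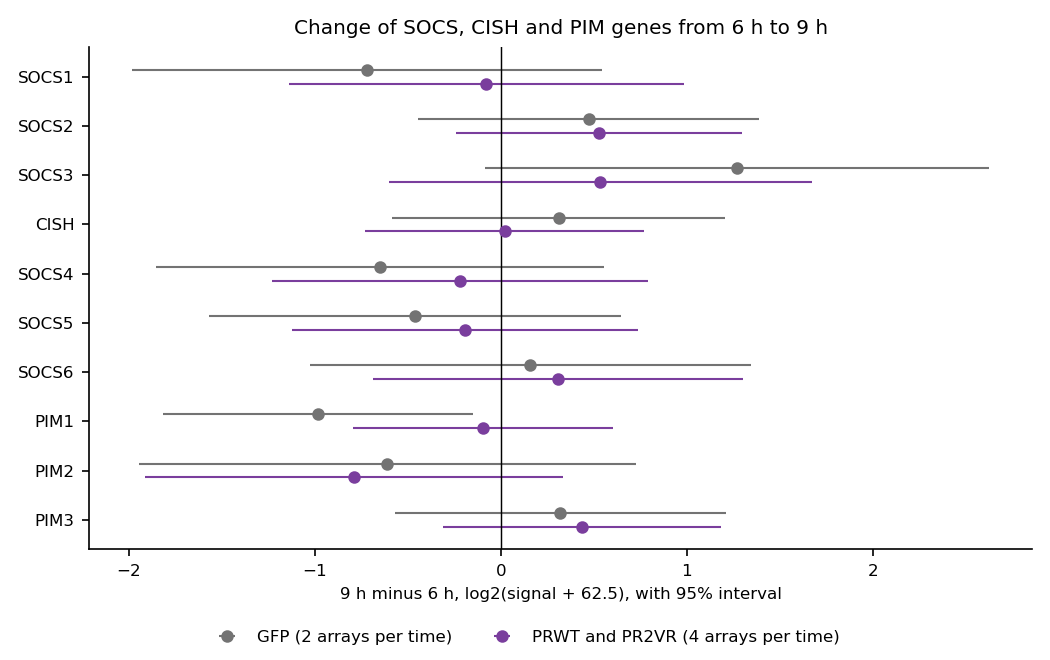
Change from 6 h to 9 h on the log2(signal + 62.5) scale, with 95% intervals of the fit with sets as a random block, in GFP cells (2 arrays per time) and in fusion cells (4 arrays per time). For PIM1 the change was -0.98 in GFP cells and -0.10 in fusion cells, and for the representative probe set of SOCS3 it was 1.27 and 0.54.

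The rest of the pathway was read from lists of its parts, of which those that reached the filter are counted for both fusions against GFP. Of 9 JAK kinases and STAT factors tested, 5 were above and 4 below 0, with a median of 0.01 against -0.02 for all genes. JAK1, the kinase shared by many cytokine receptors, differed by 0.10 ± 0.20, STAT3 by -0.01 ± 0.20 and STAT6 by 0.01 ± 0.17 (SE with sets as a block, as in the rest of the lists). Of 27 cytokine receptors tested, 17 were below 0 and the median was -0.12. With sets as a block, IL10RA, the ligand-binding chain of the interleukin 10 receptor, fell by 1.09 ± 0.17 (limma adjusted p = 0.032) and IFNAR2, a chain of the type I interferon receptor, fell by 0.996 ± 0.17 (adjusted p = 0.043). Without the block their adjusted p was 0.37 and 0.75, and with it both calls held in 2 of 12 fits that left out 1 array, those without a PR2VR array of 6 h. Of 25 cytokine ligands listed, 6 reached the filter, 5 of them below 0, with a median of -0.47. IL6, a ligand that signals through gp130, differed by -0.86 ± 0.22 (limma adjusted p = 0.20) and IL12A, a chain of interleukin 12, by -0.63 ± 0.23 (adjusted p = 0.45). IL23A went the other way, by 0.21 ± 0.25 (limma adjusted p = 0.90).

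Other negative regulators of the pathway gave 10 above and 6 below 0 of 16 tested, with a median of 0.09. PTPRC, the phosphatase CD45, differed by 0.53 ± 0.19 with the block (limma adjusted p = 0.45), and USP18, an interferon-induced brake on IFNAR2, by -0.22 ± 0.19. The ubiquitin ligase partners of the SOCS box gave 7 above and 5 below 0 of 12 tested, with a median of 0.05, and ELOC, the elongin C that the SOCS box binds, differed by -0.25 ± 0.22. Genes induced by STAT3 and STAT5 gave 10 above and 11 below 0 of 21, with a median of -0.02, and MCL1, a survival factor, differed by -0.09 ± 0.14. Of 25 PIM substrates and partners, 13 were above and 12 below 0. CDKN1A, the cell cycle inhibitor p21 that PIM1 can phosphorylate, fell by 1.22 ± 0.15 with the block (limma adjusted p = 0.012), a call that held in 4 of 12 fits that left out 1 array. Without the block 0 of the 112 list genes tested were called for both fusions, and 14 (12.5%) had an unadjusted p under 0.05, against 3.14% of all genes. With the block limma called the 3 genes named above and 18 (16.1%) had an unadjusted p under 0.05, against 8.4% of all genes. The lists were chosen with these comparisons known, so nothing is read from these shares. For PR2VR against PRWT limma called 0 of the 112, of which 1 (no block) or 7 (block) had an unadjusted p under 0.05, against 1.55% and 6.86% of all genes. For 9 h against 6 h over all constructs it also called 0, with 15 (no block, 13.4%) and 7 (random block, 6.25%) at an unadjusted p under 0.05. These shares are near the 15.1% and 5.49% of all genes.

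The genes most like each member are given as a description over the 12 arrays, which share the set structure, after the mean of each set was subtracted from the log2 values. SOCS1 was most like IFNL1 (r = 0.96), IGHG1 (r = 0.96) and MELTF (r = 0.94). PIM1 was most like MELTF, PLAUR and MFN2, at r = 0.95 each. CISH was most like ZNF475, FOXP4-AS1 and QTGAL (r = 0.95, 0.94 and 0.91), SOCS3 like MON1A, ZC3HC1 and ZNF653 (r = 0.97, 0.93 and 0.92) and PIM3 like SOD1, SMIM26 and LINC03040 (r = 0.93, 0.91 and 0.91). Before subtraction of set means, r was 0.81, 0.80 and 0.34 for the genes of SOCS1 and 0.82, 0.81 and 0.86 for those of PIM1. It was -0.22 for QTGAL, -0.14 for ZNF653 and -0.17 for SMIM26, and 0.48 to 0.78 for the rest. Among all pairs of the members themselves, r was highest for SOCS1 and PIM1 (r = 0.86), followed by SOCS2 and SOCS5 (r = 0.85). It was lowest for SOCS1 against SOCS2 (r = -0.80), followed by SOCS1 against SOCS5 (r = -0.77). Before subtraction of set means, these 4 pairs gave 0.68, 0.34, -0.51 and -0.68 in the same order. All these values use the same arrays that separate GFP from fusion cells, and the genes most like a member are the highest of all genes tested. The pairs of members named are the extremes of all such pairs, and the members were chosen from differences between these arrays. Nothing is therefore read from these r values.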

How the data were processed

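RNA of U937 cells was measured on 12 Affymetrix arrays, 2 per construct and time. Per the labels' protocols, total RNA was made into biotin-labelled cRNA. The authors computed MAS5 signals, a linear intensity, per the submitters' processing notes, and no version is named there. These deposited values were already scaled to a common trimmed mean and was not normalized further. Detection calls were not used here.

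From these, log2(signal + 62.5) was computed, 62.5 being the 20th percentile of all values, a scale that understates changes of dim genes. One probe set per gene, the brightest with 1 symbol, was kept, and genes were tested where its mean reached the 40th percentile of probe sets (signal 168.9). limma 3.58.1 in R 4.3.3 fitted 6 group means with a variance trend (6 residual degrees of freedom), and Benjamini-Hochberg adjustment ran over 13959 genes. Numbers in the titles are shared between constructs. After group means were subtracted, arrays with the same number correlated between constructs across genes, with r of 0.36, 0.15 and 0.21 (6 h) and 0.60, 0.63 and 0.56 (9 h), so the numbers were taken to pair arrays. The set of 1 time and number was a block (4 residual degrees of freedom), or, between times, a random block with a consensus correlation of 0.41. The fits were tested on simulated data.

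The 10 genes, the pathway lists, the markers and the alternatives were chosen with earlier results of these data known. Named besides the 10 genes are pathway genes that were called, pathway genes with the highest mean, and the 3 genes most like SOCS1, SOCS3, CISH, PIM1 and PIM3. Alternatives were the offset, the filter, quantile normalization, the variance trend, the block and the omission of each array or of the 3 arrays of number 2 at 9 h. Precision is limited by 2 arrays per group. Promoters of SOCS2 and SOCS5 and any protein sequence were not used here.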

Additional observations from a re-analysis of the deposited data

Results flagged for a closer look

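The representative probe set of SOCS4, 226178_at, differed in sign between the times in PRWT cells. Its PRWT array lay below the GFP array in both sets at 6 h, by a mean of -0.33 (log2). At 9 h it lay slightly above, by 0.038 and 0.053 (mean 0.045), small beside a residual SD of 0.63 without the block. The share of all genes with such a pattern of signs was not counted, so nothing is read from it. The other SOCS4 probe set, 1552792_at, went the other way at 6 h, with PRWT above GFP by 0.56 and 0.97, and differed by 0.15 and -0.88 at 9 h. The difference between the times was not tested for PRWT alone. For both fusions together, the interaction of 226178_at with time was 0.43 ± 0.67 (limma adjusted p = 1.0).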

How the results depend on the processing

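The replicate block (set) raised the calls among the 10 genes from 0 to 2 for both fusions and from 0 to 2 for PR2VR against GFP, SOCS1 and PIM1 in each, and changed no other count among them. Over all genes tested the calls rose from 0.00716% to 0.315% for both fusions and from 0.00716% to 0.294% for PR2VR. Leaving out each array in turn with the block gave 0 to 2 calls for both fusions, 0 to 1 for PRWT, 0 to 3 for PR2VR and 0 to 2 for both fusions at 6 h. Without the block it gave 0 throughout these. The calls over all 13959 genes moved as well, from 1 to 360 for both fusions with the block, so nothing is read from these counts. For PRWT, PR2VR and both fusions at 6 h, the share of all genes called in these fits is not given. Their counts among the 10 genes cannot be set against it, so nothing is read from them either. SOCS1, both fusions against GFP, ran from -2.06 to -1.62 without and from -2.13 to -1.55 with the block. PIM1 ran from -1.20 to -0.92 without and from -1.13 to -0.99 with it. Of the 10 differences of both fusions from GFP, 6 changed sign when 1 array was left out, none of them called with all arrays. Over these fits SOCS3 ran from -0.38 to 0.23, SOCS4 from -0.36 to 0.22, CISH from -0.13 to 0.093 and PIM2 from -0.28 to 0.15, SOCS6 reached 0.02 and PIM3 -0.01. SOCS5 kept its sign and ran from 0.24 to 0.84. The alternatives also reversed the sign of small differences of PR2VR from PRWT. SOCS1 was 0.29 with the set of number 2 at 9 h omitted, in both fits, and ran from -0.50 to 0.38 when each array was left out, and with the block it was 0.15 without PRWT number 2 of 6 h, 0.35 without PRWT number 2 of 9 h, 0.067 without PR2VR number 2 of 6 h and 0.060 without PR2VR number 2 of 9 h. PIM3 was 0.013 with that set omitted. The cause was not tested. PIM2, both fusions against GFP, was 0.02 after quantile normalization. SOCS3 fell out at the filter of the 60th percentile. Omitting that set with the block, leaving out each array for IL10RA, IFNAR2 and CDKN1A, the counts of list genes at an unadjusted p, and the time fits and separation of single probe sets were added after seeing the data. Precision is limited by 2 arrays per group.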
